A study of Mus musculus with 4 samples.

Results

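The nuclear genes for the subunits of oxidative phosphorylation were followed in the brains of newborn mice whose dams had received titanium dioxide nanoparticles (TiO2-NP) or vehicle during pregnancy. Members were chosen by gene symbol alone, through the RefSeq accessions that the array gives for its probes: the Nduf a, b, c, s and v subunits of complex I, Sdha to Sdhd of complex II, the Uqcr genes of complex III, the Cox4 to Cox8 genes of complex IV and the Atp5 genes of complex V. This gave 84 of the 20660 genes named on the array, with 37 in complex I, 4 in complex II, 8 in complex III, 18 in complex IV and 17 in complex V. Another 3 protein-coding genes and 18 pseudogenes whose symbols fit had no probe named for them. Where a member had several probes, the brightest stood for it.

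The strain is labelled C57BL/6, and C57BL/6J where the treatment is described, and the whole brain was taken on postnatal day 1. Dams of the TiO2-H groups received 25 µL of TiO2-NP suspension into the trachea, labelled as 100 µg per mouse, and dams of the Sham groups 25 µL of the vehicle without particles. The labels date the exposure to gestational day 10.5 in one place and 14 in another. The 2 exposures and the 2 sexes gave 4 groups, each of them 1 pool of RNA on 1 array. A pool held 2 pups per litter, from 5 litters in Sham and from 6 in TiO2-H. The spread between animals was therefore not measured, p-values describe the spread between these pools only, and the groups' litters cannot be told apart from the exposure.

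Mitochondria pass electrons from NADH and succinate along complexes I to IV to oxygen, and the proton gradient built on the way drives ATP synthase, complex V. Most subunits are encoded in the nucleus, and the remainder in the mitochondrial genome. The newborn brain shifts from a fetal, largely glycolytic metabolism towards respiration around birth. Complex IV is known for subunits with alternative isoforms, of which some are typical of heart, skeletal muscle and brown fat, some of testis, and the others are found in nearly every tissue.

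The 2 Sham arrays lay in row 1 of the slide and the 2 TiO2-H arrays in row 2, so position on the slide and exposure cannot be told apart. Between 56.2% and 61.2% of spots were well above background, no spot was saturated, and the 5 neuron markers examined (Tubb3, Stmn2, Snap25, Dcx and Map2) were well above background on all 4 arrays. The labels of sex went against the sex-linked transcripts in the TiO2-H groups. Xist, which is expressed from the inactive X chromosome of females, read 17.9 on the Sham male array and 276 on the Sham female array, but 347 on the array labelled TiO2-H male and 5.36 on that labelled TiO2-H female. The Y-linked Eif2s3y read 3519, 419, 6.40 and 4345 on the same arrays, and Ddx3y 1418, 142, 7.18 and 1783. Uty read 49.9, 7.51, 8.24 and 47.6, and no array measured Kdm5d well above background. Groups are called by their labels here. The limma comparison of the exposures has no term for sex. However, every value for the arrays labelled male, or for those labelled female, sets a Sham array against a TiO2-H array. The sex-linked transcripts of that TiO2-H array are those of the other sex. On the Sham female array, Xist and Y-linked transcripts were both present, and the reason was not tested.

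Values are given first for Sham and then for TiO2-H, with the array labelled male before that labelled female. Unless called a signal, a value is the log2 of the processed signal (an intensity with the background subtracted) minus the log2 of the 75th percentile of that array, so that 0 marks a spot as bright as that percentile. A difference is TiO2-H minus Sham on this log2 scale, ± the standard error of limma, a linear model fitted to all genes over 2 arrays against 2. Levels of different probes are not compared, since brightness also depends on the probe.

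Of the 84 members, 81 were well above background on all 4 arrays and 76 were above the 75th percentile on all 4. The exceptions were 3 isoforms of complex IV: Cox8b, Cox7b2 and Cox8c, of which the last was not measured on any array, so that 83 members were tested. The members differed little between the exposures. For 77 of them the difference was within 0.2 in both sex labels, the remainder measured on all 4 arrays being Ndufa4l2, Uqcrc1, Cox4i2 and Cox6a2. An error of about 0.20 on such a difference between 2 arrays follows from the signal errors of the scanner software. The spots of 1 array agreed more closely than that: the probe of Uqcrc2, a core protein of complex III, was spotted 10 times on each array, with an SD of 0.04, 0.04, 0.06 and 0.04 over its spots.

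The median difference of the members was -0.04 ± 0.05 (SD over the sex labels, n = 2), with -0.08 on the arrays labelled male and -0.01 on those labelled female. Over all 16143 genes tested the median was 0.00. By complex the medians were -0.04 ± 0.04 for complex I, -0.03 ± 0.07 for complex II, -0.04 ± 0.04 for complex III, -0.04 ± 0.05 for complex IV and -0.05 ± 0.06 for complex V. The complexes thus hardly differed from each other, and no median lay farther from 0 than about the spread between the sex labels. The sign of these medians also depended on the scaling. With no scaling of the arrays, which moved the median of all genes to 0.12, the median of the members became 0.08. Relative to all genes it stayed 0.04 below in both cases, but only 0.01 below with quantile normalization and 0.02 below with normexp background correction followed by quantile normalization.

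**Figure D1:**
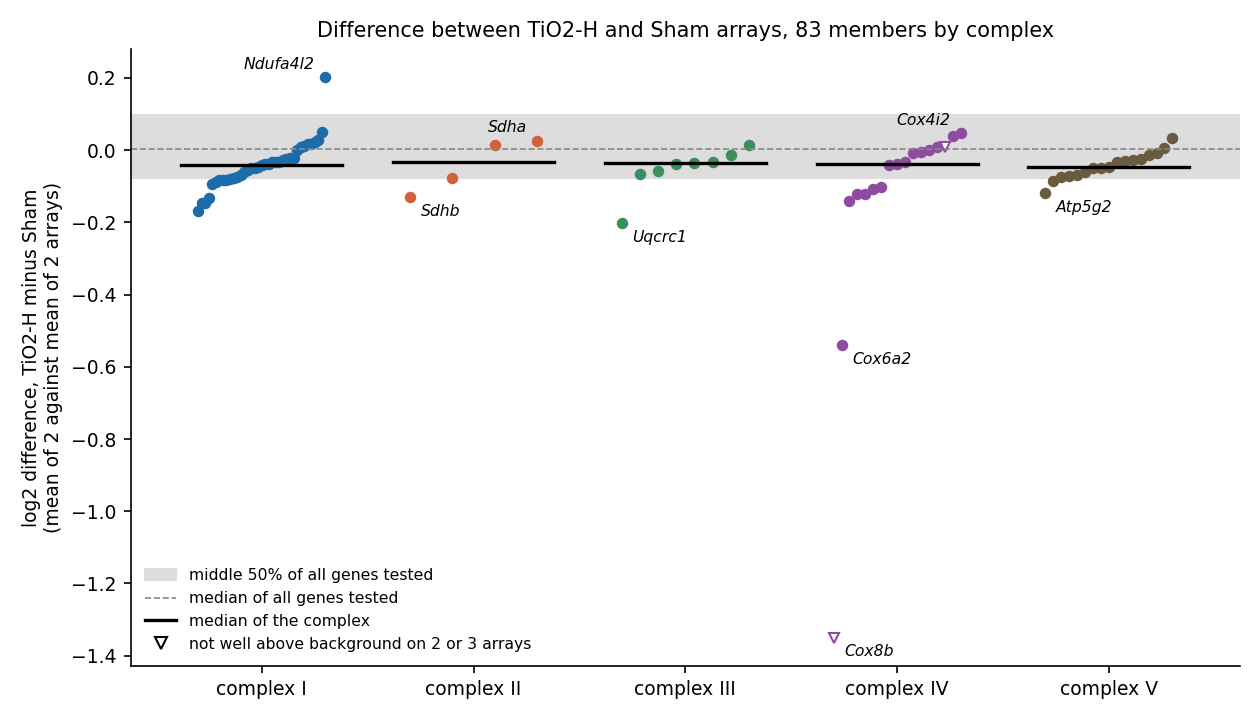
Log2 difference between TiO2-H and Sham (mean of 2 arrays against mean of 2, scaled by the 75th percentile) for the 83 members tested, 1 point per gene, sorted within each complex. The black bars are the medians of the complexes, between -0.05 and -0.03 at this scaling and between 0.07 and 0.08 with no scaling, and the grey band holds the middle 50% of all genes tested; Cox8b, at -1.35, is drawn from the floor used for dim spots, open triangles mark members not well above background on 2 or 3 arrays, and Cox6a2 lies at -0.54.

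In limma with Benjamini-Hochberg adjustment no member had an adjusted p below 0.05, and neither did any of the 16143 genes (0%); the lowest adjusted p was 0.0917 for both. At an unadjusted p below 0.05, 1 of 83 members was higher in TiO2-H (1.2%) and 16 were lower (19.3%), against 12.2% of all genes higher and 9.55% lower. Both TiO2-H arrays lay below both Sham arrays for 38 members (45.8%) and above them for 3 (3.61%), against 27.1% and 28.5% of all genes. In all, 65 of the 83 members lay below 0, against 48.6% of all genes. These splits follow the scaling: 49 members were below 0 with quantile normalization, 52 with normexp, and 12 with no scaling. Above 0 were 34, 31 and 71 members in that order, against 50.7%, 51.6% and 83.2% of all genes. The count with no scaling thus moved along with that of all genes.

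A displacement below 0 was also present in the genes of the cytosolic and the mitochondrial ribosome. It was absent from glycolysis, with a median of 0.02 and 11 of 17 genes above 0. The 85 genes tested of the cytosolic ribosome had a median of -0.07, with 80 of them below 0. At an unadjusted limma p below 0.05, 29 were lower in TiO2-H (34.1%) and 0 higher, against 9.55% and 12.2% of all genes. Both TiO2-H arrays lay below both Sham arrays for 67 (78.8%) and above them for 1, against 27.1% and 28.5% of all genes. The 77 genes of the mitochondrial ribosome had a median of -0.04, with 54 below 0. Under no scaling these medians were 0.04 and 0.07, and both ribosomes and the oxidative phosphorylation genes then lay above 0 and below the median of all genes.

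**Figure D2:**
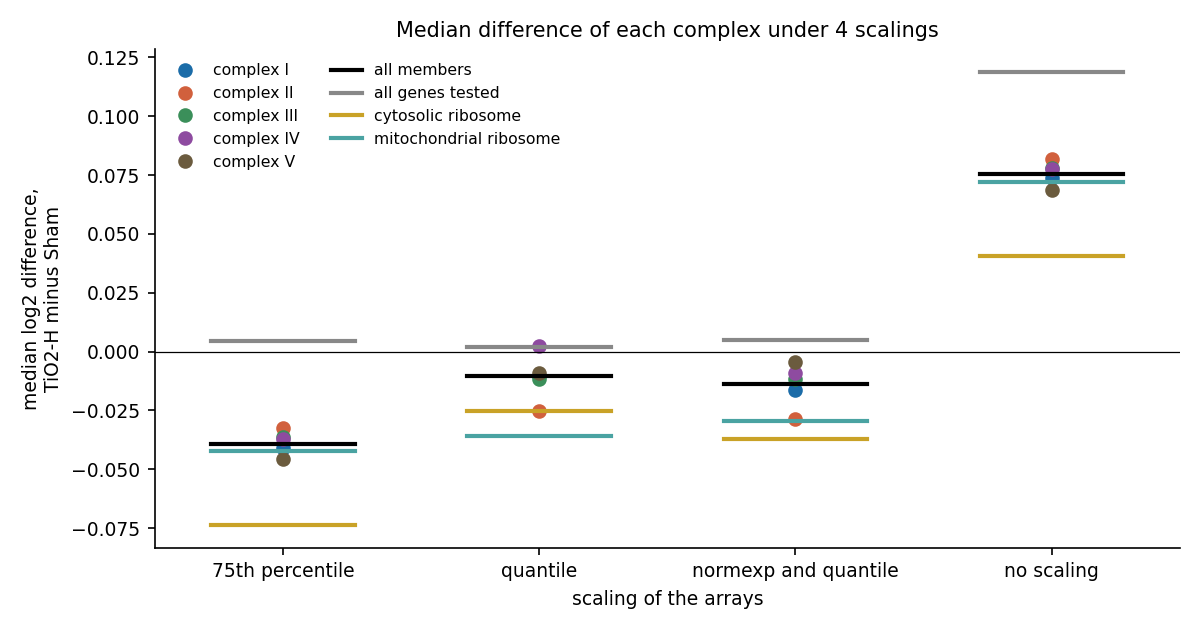
Median log2 difference, TiO2-H minus Sham, of each complex (points) and of all members, all genes tested and the 2 ribosomes (bars) under 4 scalings of the arrays. The members lie below all genes under each of the 4, by 0.04 with the 75th percentile or no scaling and by 0.01 and 0.02 with the others, while their own sign turns from negative to positive (0.08) with no scaling. With quantile normalization the median of complex IV lies at that of all genes.

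Complex I, the NADH dehydrogenase that feeds most electrons into the chain, had 37 members measured, all of them well above background on every array. At an unadjusted limma p below 0.05, 7 of the 37 were lower in TiO2-H and 1 was higher, against 9.55% and 12.2% of all genes. Core subunits at the entry of electrons differed little. Ndufs1, the large iron-sulfur subunit at the electron entry, read 4.22, 4.15, 4.26 and 4.12, and its groups overlapped. Ndufv1, which binds NADH and flavin, read 5.60, 5.64, 5.57 and 5.60, with a difference of -0.03 ± 0.03.

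Among accessory subunits of complex I, Ndufb6 of the membrane arm read 4.48, 4.45, 4.31 and 4.33. Its difference of -0.15 ± 0.03 (limma adjusted p = 0.0985) came from TiO2-H arrays that were both below the Sham arrays. Ndufa10 read 3.44, 3.42, 3.29 and 3.29, with a difference of -0.15 ± 0.03, and Ndufa9 read 3.86, 3.80, 3.70 and 3.69, with a difference of -0.13 ± 0.03. In these genes the arrays of an exposure were closer to each other than to those of the other exposure. With no scaling Ndufb6 and Ndufa10 were at -0.03 and Ndufa9 at -0.02, none of them past the unadjusted threshold. Ndufc2, Ndufs8 and Ndufb4, also past that threshold, were between -0.09 and -0.08 and turned to between 0.02 and 0.03 with no scaling.

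The single complex I member that was higher was Ndufa4l2, a paralogue of Ndufa4 known as a target of the hypoxia-inducible factor. It read -0.92, -0.97, -0.80 and -0.69. Both TiO2-H arrays were above both Sham arrays, with a difference of 0.20 ± 0.06 (limma adjusted p = 0.166), and it stayed above 0 with every scaling tried, reaching 0.32 with none. Without the Sham female array, or without the array labelled TiO2-H female, it no longer passed the unadjusted threshold, at 0.18 and 0.15. Ndufa4, which is named for complex I but is now counted with complex IV, read 5.13, 5.14, 5.00 and 5.11, with a difference of -0.08 ± 0.04. Moving both genes to complex IV left the medians of complexes I and IV at -0.04.

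Ndufv3, an accessory subunit made in a short and a long form, was the member whose probes differed most. Its brighter probe read 5.98, 6.05, 6.08 and 6.05, a difference of 0.05 ± 0.04, while its second probe gave -0.20. Over the 22 members with more than 1 probe well above background, the probes of a gene differed by a median of 0.07, and their differences had opposite signs in 10.

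Complex II, succinate dehydrogenase, is the enzyme shared by the chain and the tricarboxylic acid cycle, and the only complex made entirely of nuclear subunits. Its 4 members gave 2 values above 0 and 2 below. Sdhb, the iron-sulfur subunit, read 6.10, 6.09, 5.97 and 5.96. The arrays of each exposure lay within 0.02 of each other, and the difference of -0.13 ± 0.03 (limma adjusted p = 0.103) was the same in both sex labels. Its second probe gave -0.19, and with no scaling Sdhb was at -0.02. Sdha, the flavoprotein that oxidizes succinate, read 4.02, 4.03, 4.03 and 4.07, a difference of 0.03 ± 0.03. The membrane anchors Sdhc and Sdhd were at 0.01 ± 0.04 and -0.08 ± 0.03, neither past the unadjusted threshold.

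Complex III passes electrons from ubiquinol to cytochrome c. Uqcrc1, one of its core proteins, gave the lowest p of all members. It read 4.06, 4.00, 3.85 and 3.81, so that both TiO2-H arrays were below both Sham arrays, by -0.21 on the arrays labelled male and -0.19 on those labelled female. The difference was -0.20 ± 0.03 (limma adjusted p = 0.0917). It was below 0 under every scaling tried, but at -0.09, not past the unadjusted threshold, when the arrays were not scaled. The partner core protein Uqcrc2 was at -0.04 ± 0.03, and Uqcrfs1, the Rieske iron-sulfur protein, read 4.88, 4.88, 4.84 and 4.85, a difference of -0.03 ± 0.03. The small subunits Uqcrq, Uqcr10 and Uqcrb were at -0.07 ± 0.03, 0.01 ± 0.04 and -0.01 ± 0.04. The probes of Uqcr10, Uqcrb, Uqcrh and Uqcrq each disagreed in sign.

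Complex IV, cytochrome c oxidase, reduces oxygen to water, and held the 2 members with the largest differences, Cox8b and Cox6a2, both tissue-restricted isoforms. Within a sex label, with 1 array against 1 and no test, 2 members were at or below 0.67-fold on the arrays labelled male, Cox8b and Cox6a2, and 1, Cox8b, on those labelled female. This is 2.41% and 1.2% of the 83 members, near the 1.83% and 1.97% of all genes at or below that fold. No member reached 1.5-fold, against 2.06% and 1.59% of all genes.

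Cox8b, the isoform of the smallest complex IV subunit that is typical of heart, skeletal muscle and brown fat, gave signals of 64.0, 59.6, 8.37 and 12.1. It was well above background on both Sham arrays and not well above background on either TiO2-H array, where the lowest signals counted as such were 29.5 and 23.3. Set against these floors, it was at least 2.32-fold lower in the pair of arrays labelled male, at least 2.80-fold lower in the pair labelled female, and at least 2.55-fold lower over both (limma adjusted p = 0.0917). It was lower under every setting tried, and its signal in Sham was dim. Cox8a, the isoform of nearly every tissue, read 6.83, 6.78, 6.74 and 6.78 with overlapping groups, and its difference of -0.04 ± 0.04 was 0.07 with no scaling. Cox8c, the testis isoform, did not rise well above background anywhere.

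Cox6a2, the heart and skeletal muscle isoform of subunit 6a, read 0.21, -0.50, -0.62 and -0.75. Only the Sham male array stood apart: its signal was 936, against 562 on the Sham female array and 564 and 518 on the TiO2-H arrays. The differences were -0.83 on the arrays labelled male, or 0.563-fold, and -0.25 on those labelled female, or 0.841-fold. Over both the difference was -0.54 ± 0.22 (limma adjusted p = 0.236). It was -0.19 without the Sham male array and -0.89 without the Sham female array, each of which left only 1 Sham array. The Sham female array was itself at 0.612-fold of the Sham male array. Cox6a1, the general isoform, read 8.33, 8.30, 8.18 and 8.23, with a difference of -0.11 ± 0.04 (limma adjusted p = 0.176) that turned to 0.01 with no scaling.

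**Figure D3:**
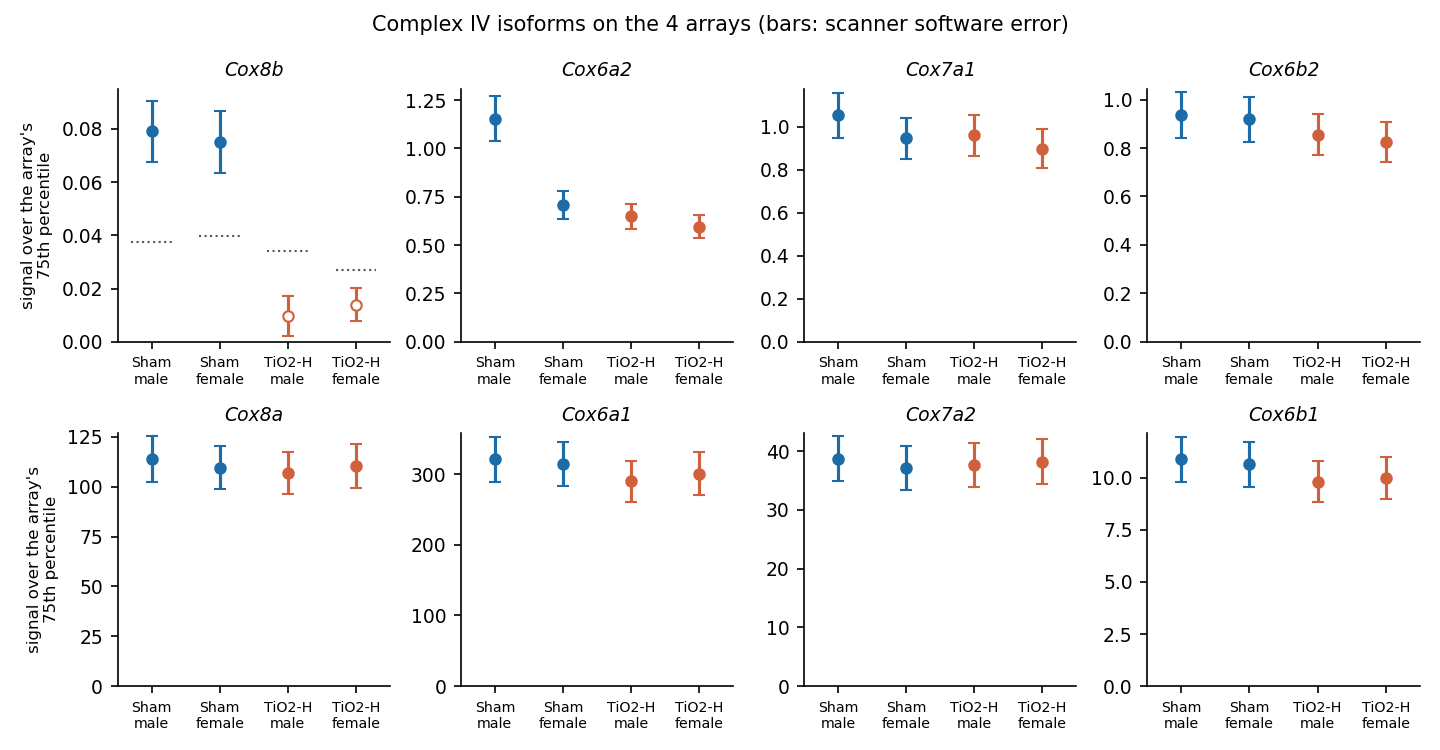
Signal of 8 complex IV isoforms divided by the 75th percentile of each array, with the scanner software's error (bars); the y axes differ between genes and start at 0. The upper row holds the tissue-restricted isoforms and the lower row the general isoform of the same subunit. Open points are spots not well above background, and dotted lines the lowest signal counted as well above it: Cox8b is filled on the Sham arrays and open on the TiO2-H arrays, while Cox6a2 is high on the Sham male array alone.

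Other isoform pairs differed less. Cox7a1, the heart and muscle isoform of subunit 7a, read 0.07, -0.08, -0.06 and -0.15, and its groups overlapped. Its general counterpart Cox7a2 read 5.28, 5.22, 5.23 and 5.26. Cox6b2, the testis isoform of subunit 6b, read -0.10, -0.12, -0.23 and -0.28, with a difference of -0.14 ± 0.05 (limma adjusted p = 0.182), and Cox6b1 read 3.45, 3.41, 3.29 and 3.32, a difference of -0.12 ± 0.03 (limma adjusted p = 0.123). Both members of that pair were thus lower on the TiO2-H arrays by similar amounts, which came to -0.03 for Cox6b2 and -0.01 for Cox6b1 with no scaling.

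Cox4i2, the isoform of subunit 4 known from lung and from low oxygen, read -0.98, -0.81, -0.74 and -0.95. It differed by 0.24 on the arrays labelled male and by -0.15 on those labelled female, so that the exposures overlapped. Its general counterpart Cox4i1 read 6.91, 6.86, 6.87 and 6.83. Cox7b2, a testis isoform, was well above background only on the array labelled TiO2-H female, with a signal of 38.3. Cox7b was at 0.01 ± 0.04. The supercomplex factor Cox7a2l read 6.14, 6.01, 6.01 and 6.12, with opposite signs in the sex labels. Of the subunits without isoforms, Cox5a read 6.88, 6.87, 6.88 and 6.87 and Cox5b 5.86, 5.77, 5.87 and 5.83, with overlapping groups. Cox7c was at -0.12 ± 0.03 (limma adjusted p = 0.131), though 1 of its 3 probes gave 0.00.

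Genes of muscle, heart and brown fat were examined beside Cox8b and Cox6a2, since whole brain should hold little of these tissues. In bulk RNA, fewer cells of a type and less RNA per cell cannot be told apart. Of 8 skeletal muscle genes, 6 to 7 were well above background on each array. Their summed signal over the 75th percentile was 2.09, 2.07, 2.13 and 1.94, and their median difference was -0.02. That of 4 heart genes was 0.64, 0.61, 0.69 and 0.66, with a median difference of 0.10. The fast-muscle gene Actn3 was the 1 gene of the muscle and heart lists at an unadjusted limma p below 0.05, at -0.22 ± 0.08, but not with no scaling, at -0.11. The muscle gene Ckm was well above background only on the Sham female array, with a signal of 54.8. The heart gene Myl7 was so only on the array labelled TiO2-H male, with a signal of 59.1.

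Of the 3 brown fat genes, Ucp1, the uncoupling protein that defines brown fat, gave signals of 101, 145, 29.7 and 49.4. It was well above background on all arrays but that labelled TiO2-H male, where its signal lay close to the lowest counted as such. By these dim signals it was 3.66-fold lower in the pair of arrays labelled male and 3.20-fold lower in the pair labelled female (limma adjusted p = 0.0917 over both). Cidea, a lipid-droplet gene of brown fat, was at 0.07 ± 0.06, and the elongase Elovl3 was below that level throughout. Ucp1 therefore moved in the same direction as Cox8b on both TiO2-H arrays, while the summed signal of the list, carried by Cidea, was 1.54, 1.72, 1.62 and 1.57. The part of brown fat in the difference of Cox8b was not tested.

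Marker lists of brain and blood cells went in different directions. Their counts at an unadjusted limma p below 0.05 stand beside 12.2% of all genes higher and 9.55% lower. The 5 neuron markers had a median of 0.15, with Snap25, Dcx and Map2 higher at an unadjusted limma p below 0.05 and Tubb3 and Stmn2 below 0. All genes tested lay above 0 in the lists of microglia (4 genes, median 0.15, 3 at that threshold), meninges (5 genes, 0.10, 2 at it) and endothelium (3 genes, 0.12, 1 at it). Radial glia and astrocytes had 3 of 5 above 0 (median 0.04, 1 at the threshold), and the oligodendrocyte lineage 3 of 4 (0.03, 0 at it). The 5 red blood cell genes tested were all below 0 (median -0.25, 2 at the threshold), and so were the 4 choroid plexus genes (-0.06, 0 at it), which turned to 0.05 with no scaling. Of 5 pituitary genes, 2 were tested and both lay above 0, through the array labelled TiO2-H male alone. Gh was well above background only there, with signals of 11.2, 6.44, 301 and 4.76, and Pomc gave 572, 570, 956 and 590. The part of these cell types in the differences of the members was not tested.

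Complex V, ATP synthase, had 17 members, of which 2 were above 0 and 15 below at the 75th percentile scaling, with a median that turned to 0.07 with no scaling. Atp5b, the catalytic subunit beta, read 7.40, 7.37, 7.41 and 7.38, and Atp5a1, the subunit alpha, read 6.52, 6.57, 6.42 and 6.52. They were at 0.01 ± 0.03 and -0.08 ± 0.04, neither past the unadjusted threshold. The 3 genes for subunit c of the rotor, which encode the same mature protein, were at -0.06 ± 0.04 (Atp5g1), -0.12 ± 0.04 (Atp5g2) and -0.03 ± 0.04 (Atp5g3). Atp5g2 read 6.51, 6.47, 6.41 and 6.33, with both TiO2-H arrays below both Sham arrays (limma adjusted p = 0.159). Its second probe gave -0.02, and with no scaling it no longer passed the unadjusted threshold. Atp5h, of the peripheral stalk, was at -0.09 ± 0.03 (limma adjusted p = 0.178), but at 0.03 with no scaling. Atp5pb, also of the stalk, was at 0.03 ± 0.04.

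The arrays labelled male and female gave differences of opposite sign for 30 of the 81 members measured on all 4. A further 44 were below 0 in both and 7 above 0 in both, namely Ndufa4l2, Ndufb3, Ndufs7, Ndufv3, Sdha, Cox5b and Atp5b. These counts hold for the percentile scaling only, and the matching shares of all genes are not given. In the mean over both labels, 65 members were below 0 at that scaling, 49 with quantile normalization and 52 with normexp. With no scaling 12 members were below 0 and 71 above, where 83.2% of all genes lay above 0. Within an exposure, Cox6a2 was the only one of 82 members past a fold threshold in Sham (female over male), where 1.84% of all genes reached 1.5-fold and 1.75% fell to 0.67-fold or less. No member passed in TiO2-H, against 1.3% and 2.29% of all genes.

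**Figure D4:**
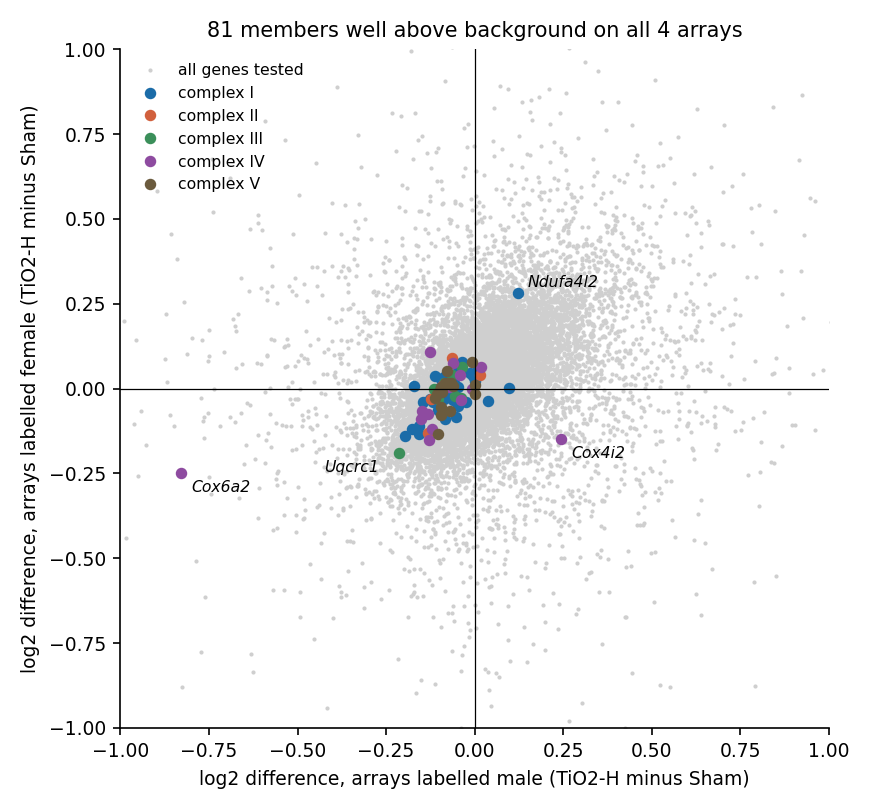
Log2 difference, TiO2-H minus Sham, on the arrays labelled male (x axis) and female (y axis), for the 81 members well above background on all 4 arrays, colored by complex, over all genes with both values (grey; 230 of 15204 lie outside the axes). The members cluster between -0.2 and 0.2 on both axes except Cox6a2, Cox4i2, Ndufa4l2 and Uqcrc1; the position of the cluster against 0 depends on the scaling.

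The factors known to regulate these genes were measured on the same arrays. Nuclear respiratory factor 1 (Nrf1), which binds promoters of many respiratory genes, read 0.95, 0.87, 0.68 and 0.65. Both TiO2-H arrays were below both Sham arrays, with a difference of -0.24 ± 0.04 (limma adjusted p = 0.0917). It was -0.13 with no scaling, and -0.11, not past the unadjusted threshold, as the mean of its probes. The coactivator Ppargc1a read 1.43, 1.48, 1.64 and 1.58, and lay above Sham on both TiO2-H arrays, with a difference of 0.16 ± 0.04 (limma adjusted p = 0.124). It was 0.27 with no scaling, and 0.12, not past the unadjusted threshold, as the mean of its probes. Gabpa, the DNA-binding subunit of nuclear respiratory factor 2, Esrra, an orphan nuclear receptor, and Tfam, which packages mitochondrial DNA, were at -0.05 ± 0.06, -0.05 ± 0.03 and -0.06 ± 0.04, and each turned to 0.06 with no scaling. Over the 17 regulators listed, 2 were higher and 3 lower at an unadjusted limma p below 0.05, against 12.2% and 9.55% of all genes.

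Genes that build, feed or use the chain were taken from lists, whose counts at an unadjusted limma p below 0.05 stand beside 12.2% of all genes higher and 9.55% lower. With no scaling none of the genes in these lists was lower at that threshold. The assembly factors of complex I, which build the enzyme without being part of it, had 1 of 18 higher and 3 lower, with a median of -0.01. Those of complex IV had 1 of 20 higher (Coa3, at 0.16 ± 0.05) and 1 lower (Cox10, which makes heme for complex IV, at -0.32 ± 0.09, or -0.20 with no scaling). Of 17 genes tested for electron carriers and coenzyme Q synthesis, 1 was higher and 4 were lower, among them Coq7 at -0.15 ± 0.04 and Coq9 at -0.17 ± 0.04, which came to -0.03 and -0.05 with no scaling. Cytochrome c (Cycs) was at 0.00 ± 0.03, and at 0.11 with no scaling. Of 8 carriers of adenine nucleotides and phosphate, 2 were lower, the phosphate carrier Slc25a3 at -0.14 ± 0.04 and the nucleotide carrier Slc25a5 at -0.08 ± 0.03, which came to -0.03 and 0.03 with no scaling. The tricarboxylic acid cycle (18 genes) and glycolysis (17 genes) had medians of -0.01 and 0.02, with 2 lower in the former and 2 in either direction in the latter. With no scaling the medians of these 6 lists were between 0.08 and 0.14, around the 0.12 of all genes.

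The sequence before the start of the members was examined in RefSeq windows of mouse build GRCm38.p6, 250 bases long and ending at the base before the gene start. Windows were found for 68 of the 84 members, 73 in all since 5 had more than 1 start. Among the members without one were Atp5a1, Cox4i1, Cox4i2, Cox6a2, Cox8c, Ndufa4l2, Ndufs1 and Uqcrc2. The member windows held a median of 14 CG dinucleotides, against 13 in the 16146 windows of genes tested and 6 in all 32851 windows of the table. CG dinucleotides are the sites of DNA methylation, and windows rich in them are typical of housekeeping genes.

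The windows of Cox8b and Cox8a, and of Cox7a1 and Cox7a2, are printed as pairs of a muscle-type isoform and its general counterpart, 5′ to 3′ on the gene's strand with CG dinucleotides in capitals. They lie at chr7:140900447-140900696 (minus strand), chr19:7217617-7217866 (minus), chr7:30183921-30184170 (plus) and chr9:79759854-79760103 (minus).
Cox8b: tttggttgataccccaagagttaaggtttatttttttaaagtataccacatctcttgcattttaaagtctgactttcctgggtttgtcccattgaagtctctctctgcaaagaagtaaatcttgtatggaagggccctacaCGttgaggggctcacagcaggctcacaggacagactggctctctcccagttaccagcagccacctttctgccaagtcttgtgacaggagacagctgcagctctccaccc
Cox8a: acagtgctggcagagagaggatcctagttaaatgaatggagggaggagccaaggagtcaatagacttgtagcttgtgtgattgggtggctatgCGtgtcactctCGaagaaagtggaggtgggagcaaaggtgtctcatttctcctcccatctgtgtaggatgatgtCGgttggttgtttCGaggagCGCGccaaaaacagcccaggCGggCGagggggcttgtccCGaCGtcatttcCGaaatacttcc
Cox7a1: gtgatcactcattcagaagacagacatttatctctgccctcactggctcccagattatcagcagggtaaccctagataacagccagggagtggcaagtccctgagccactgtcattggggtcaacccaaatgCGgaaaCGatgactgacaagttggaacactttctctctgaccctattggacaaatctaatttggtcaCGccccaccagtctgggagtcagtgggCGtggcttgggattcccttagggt
Cox7a2: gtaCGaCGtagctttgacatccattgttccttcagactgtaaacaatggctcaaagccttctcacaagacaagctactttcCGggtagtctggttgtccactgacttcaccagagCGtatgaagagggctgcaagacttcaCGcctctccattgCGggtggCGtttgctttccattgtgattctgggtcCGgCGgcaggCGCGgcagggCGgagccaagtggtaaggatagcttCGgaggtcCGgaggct

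Cox8b held 1 CG dinucleotide, the lowest count of all member windows, and Cox8a 11. Cox7a1 held 4 and Cox7a2 14. The testis isoform Cox6b2 held 8 against 14 in Cox6b1, while Cox7b2 held 9 against 5 in Cox7b. In 3 of these 4 pairs the tissue-restricted isoform thus had fewer. Only 3 member windows held 4 or fewer, those of Cox8b, Cox7a1 and Ndufc2, against 20.9% of the windows of genes tested.

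**Figure D5:**
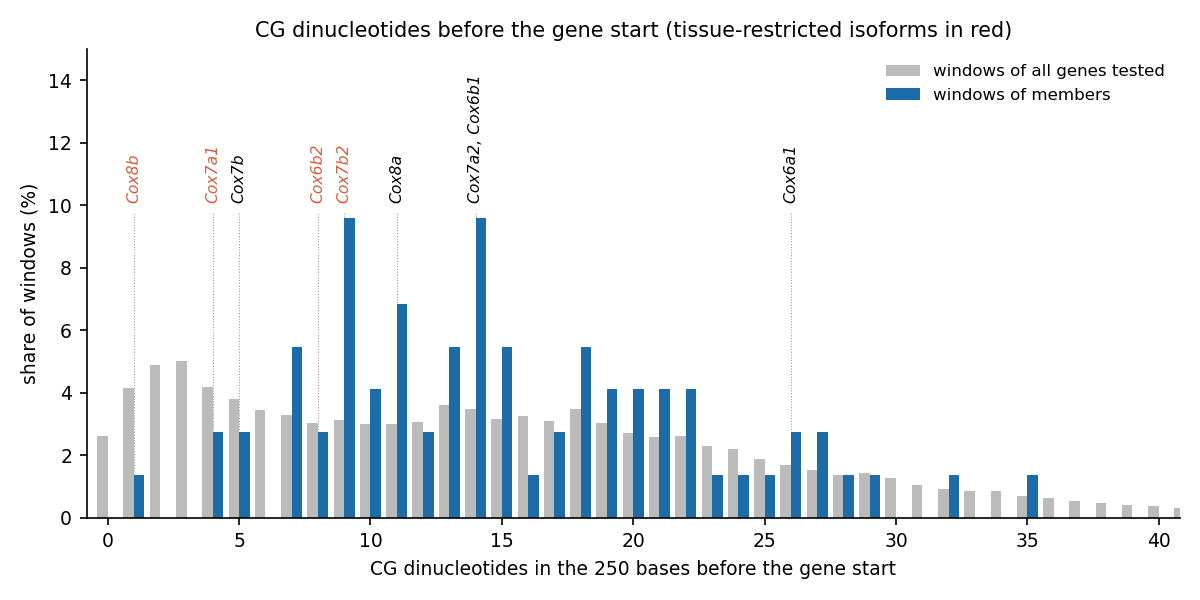
Number of CG dinucleotides in the 250 bases before the gene start (x axis) and share of windows in percent (y axis), for the 73 windows of members (blue) and the windows of all genes tested (grey; the few windows beyond the axis are not drawn). Names mark complex IV isoforms, the tissue-restricted ones in red: Cox8b, with 1, has the lowest count of all members, and Cox6a1 has 26.

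The letters of 5 motifs were searched on both strands of these windows. The nuclear respiratory factor 1 motif, GCGCATGCG, was held by 8.22% of the member windows, against 2.42% of the windows of genes tested and 1.45% of all windows. Its 6 members were Atp5g2, Atp5k, Atp5l, Cox6a1, Ndufa11 and Ndufa8. The ETS core, CCGGAAG, which nuclear respiratory factor 2 binds, was held by 16.4% of the member windows, against 10.9% and 6.91%. The YY1 motif, AAGATGGC, was held by 1.37%, against 1.72% and 1.56%, the TATA box, TATAAA, by 11% against 8.18% and 12.4%, and the E-box CAGCTG by 8.22% against 12.5% and 13%. The median difference was -0.05 for the 6 members with the nuclear respiratory factor 1 motif and -0.04 for the 62 without it, and -0.07 for the 12 members with the ETS core and -0.04 for the 56 without it.

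Cox6a1 and Atp5g2 are shown because both hold the nuclear respiratory factor 1 motif and were at an unadjusted limma p below 0.05. Capitals mark that motif, whose matches on the 2 strands overlap, and in Cox6a1 also the ETS core on the minus strand of the gene. The windows lie at chr5:115348959-115349208 (minus strand) and chr15:102671048-102671297 (minus strand).
Cox6a1: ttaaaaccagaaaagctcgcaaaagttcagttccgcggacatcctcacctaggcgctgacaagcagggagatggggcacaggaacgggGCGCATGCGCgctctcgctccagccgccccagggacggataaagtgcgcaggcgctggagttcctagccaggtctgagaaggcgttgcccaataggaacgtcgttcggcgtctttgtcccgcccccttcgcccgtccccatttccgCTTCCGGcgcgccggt
Atp5g2: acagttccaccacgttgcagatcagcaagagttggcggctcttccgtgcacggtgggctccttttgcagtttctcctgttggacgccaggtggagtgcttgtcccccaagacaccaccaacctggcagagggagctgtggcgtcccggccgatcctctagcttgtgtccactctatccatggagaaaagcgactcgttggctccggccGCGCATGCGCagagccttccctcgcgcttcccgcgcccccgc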

How the data were processed

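RNA of 4 pools was labelled with Cy3 and hybridized to 4 Agilent arrays. The authors deposited the scanner output as intensity, made with Agilent Feature Extraction 10.10.1.1, which subtracts background and detrends within an array. Precision is limited by having 1 array per group. Outlier spots were left out, spots of a probe averaged, and log2 signal minus the log2 75th percentile of the array taken. A dim spot took the array's lowest well-above-background signal as its floor, and genes well above background on at least 1 array were tested with limma 3.58.1 in R 4.3.3 (lmFit, eBayes with trend) with Benjamini-Hochberg adjustment over 16143 genes. Fold thresholds were 1.5 and 0.67. Symbols came from RefSeq, which matched 94.3% of 22765 accessions. In simulated data with 200 genes changed 3-fold, 99.5% were recovered. The simulation had independent noise and no shift of whole arrays, and it did not test differences within 0.2, where most members lay. Named were isoform families, core subunits, the 2 highest and 2 lowest members of each complex, members past a threshold or dim, sex-linked genes, 5 regulators, and, chosen after their values were seen, members at an unadjusted p below 0.05, Ndufv3, disagreeing probes, markers and pathway genes given as examples. The values of 1 member are counted but not reported here by name. The members and lists were chosen with earlier results of these data known. Alternatives covered scaling, background, filter, floor, probe choice, left-out arrays and sex terms.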

Additional observations from a re-analysis of the deposited data

How the results depend on the processing

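The count of members at an unadjusted limma p below 0.05, 17 here, ranged from 9 to 26 when 1 array was left out (11 without Sham male, 26 without Sham female, 9 without TiO2-H male, 11 without TiO2-H female), and that of members with no overlap, 41 here, from 59 to 65. Leaving 1 array out sets 2 arrays against 1, where no overlap arises more often by order alone than with 2 against 2. The rise of that count to between 59 and 65 therefore cannot be read as a dependence on the processing. Other settings kept both counts within 1.5 times. With no scaling 18 of 19 members past the p threshold were higher, where 83.2% of all genes lay above 0. The share of all genes past the unadjusted threshold is not given for these settings. A change in the members can therefore not be told apart from one in all genes. The median of the members ranged from -0.06 to -0.03 over the left-out arrays and was 0.0753 with no scaling. Of the members past the fold threshold, 1 in place of 2 remained on the arrays labelled male when the probe had to be well above background on every array (Cox6a2), when TiO2-H was compared with the Sham array of the other sex label (Cox8b), or at 2-fold and 0.5-fold (Cox8b); on the arrays labelled female there were 0, 2 and 1. Adjusted limma p-values below 0.05 were reached by 0 of 16143 genes here, 143 with probes well above background on every array, 606 with no filter and 3197 with no scaling. Members among them included Cox8b, Uqcrc1, Ndufa10 and Ndufb6 with no filter, and Cox8b, Ndufa4l2, Ndufv3 and Sdha with no scaling. Of 733 values of 46 genes under the alternatives, 617 kept their direction and side of the unadjusted threshold. With no scaling Atp5h (0.0289), Cox6a1 (0.0075), Ndufb4 (0.0212), Ndufc2 (0.0308) and Ndufs8 (0.0309) turned above 0, and Atp5h also with normexp (0.0015). The causes were not tested, except that no scaling moves all genes by the difference in array brightness. Symbols printed in the scanner files and normexp on mean signals were not run, since the files used here hold neither column; median signals served instead. The groups share no replicate numbers. With the sex label as a term in the fit, which pairs the arrays by label, 16 members passed the unadjusted threshold, and 16 with the sex labels of TiO2-H exchanged.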
